A study of Homo sapiens with 12 samples.

Results

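The miR-424, miR-503 and miR-450 cluster was followed through 6 mature miRNAs, hsa-miR-424-5p, hsa-miR-424-3p, hsa-miR-503-5p, hsa-miR-450a-5p, hsa-miR-450b-5p and hsa-miR-542-3p, of 2652 listed in each library. They were chosen by name as products of one locus, with earlier results of these data known. The data come from SLAMseq, in which 4-thiouridine (4SU) taken up into new RNA is chemically modified and read as a T>C conversion. The cells were Huh7, an established line from a human hepatocellular carcinoma, and each of 4 independent experiments gave a Control library (DMSO without 4SU), a DMSO library (DMSO with 500 µM 4SU) and a PlaB library (pladienolide B, an inhibitor of the splicing factor SF3B1, with 500 µM 4SU), all treated for 4 h. The labels also give 500 µM for PlaB, whereas the methods of the study give a far lower concentration. DMSO replicates 1 and 2 each combine 3 sequencing runs, one of them from a library prepared again.

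A miRNA is cut from a hairpin in its primary transcript by Drosha in the nucleus and then by Dicer in the cytoplasm, and either arm of the duplex, named 5p or 3p, can be loaded into Argonaute. The miRNAs of this X-linked cluster are generally described as products of a shared primary transcript. miR-424-5p and miR-503-5p belong to the extended miR-15/16 family, known for repressing cyclins and other cell cycle genes. The reads show how much of each miRNA a library held, and the T>C conversion rate, which is T>C conversions as a percent of the T positions covered by reads, shows how much of it carried label.

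The mature sequences, taken from RefSeq on GRCh38.p14, are shown because their seeds define the families and because their U content sets how many positions can carry a label. Capitals mark the seed, bases 2 to 8 from the 5′ end.
miR-424-5p: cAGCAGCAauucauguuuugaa
miR-424-3p: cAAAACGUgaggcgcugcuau
miR-503-5p: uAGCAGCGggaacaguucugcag
miR-450a-5p: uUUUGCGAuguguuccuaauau
miR-450b-5p: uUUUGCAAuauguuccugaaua
The seed AGCAGCA of miR-424-5p is also that of 5 miRNAs from other loci, miR-15a-5p, miR-15b-5p, miR-16-5p, miR-195-5p and miR-497-5p, whereas that of miR-503-5p, AGCAGCG, ends in another base. miR-450a-5p and miR-450b-5p are identical at 16 of 22 bases and differ within the seed. miR-424-3p and miR-503-5p have 4 U each, miR-424-5p has 7, miR-450b-5p has 10 and miR-450a-5p has 11.

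The 6 hairpins lie on the minus strand of chromosome X within 6527 bases (GRCh38, chrX:134540185-134546711, GENCODE version 44), in the order MIR424, MIR503, MIR542, MIR450A2, MIR450A1 and MIR450B in the direction of transcription. MIR424 (chrX:134546614-134546711) begins 69 bases before the annotated start of the long noncoding RNA gene MIR503HG and overlaps an exon in 3 of its 10 transcripts. MIR503 (chrX:134546328-134546398) begins 244 bases after that start, lies in an intron in 3 of the transcripts and overlaps an exon in 1. The remaining 4 hairpins lie beyond the end of MIR503HG, the nearest, MIR542 (chrX:134541341-134541437), 1681 bases past it, and overlap none of its transcripts. The identical miR-450a-5p sequence is encoded by both MIR450A2 (chrX:134540508-134540607) and MIR450A1 (chrX:134540341-134540431), and MIR450B (chrX:134540185-134540262) is the last.

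Control libraries held 1667668 to 2393680 reads on miRNAs, DMSO libraries 1968612 to 3880241 and PlaB libraries 1522210 to 1979696. miR-122-5p, the defining miRNA of hepatocytes, lay between 55353 and 105331 CPM (counts per 1e6 reads on miRNAs), and 2 miRNAs had a higher mean. Tests were run over the Initial miRNA Dataset, the 143 miRNAs above 100 CPM in every library and present in MirGeneDB, which holds 5 of the 6 members. miR-542-3p fell below 100 CPM in some libraries and was tested only in the wider set of 195 miRNAs above 50 CPM. The Initial miRNA Dataset without the members averaged a T>C conversion rate of 0.0247% without 4SU, 0.356% with DMSO and 4SU, and 0.178% with PlaB and 4SU.

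The authors kept reads mapping to several places, and this bears on miR-450a-5p, of whose reads 99.9% were multi-mapping. Its multi-mapping read count was even in 12 of 12 libraries and so was its number of conversions, as when each read is counted at both of its loci. The values of miR-450a-5p are given as deposited, and counting each read once divides its reads and conversions by 2 but leaves its rate as it is. No unique molecular identifiers were used, so intervals below cover counting error only, and that of miR-450a-5p is too narrow for the smaller counts.

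All 6 members were of low to moderate abundance and their levels did not pass the test in any comparison. Over all 12 libraries the mean was 327 CPM for miR-450a-5p (163 CPM if each read is counted once), 243 CPM for miR-424-5p, 189 CPM for miR-450b-5p, 175 CPM for miR-424-3p, 173 CPM for miR-503-5p and 99.2 CPM for miR-542-3p. The ranges of neighbours in this order overlapped, and miR-450a-5p falls below miR-503-5p if each read is counted once. These mature RNAs are of nearly equal length, 21 to 23 bases, but CPM of different miRNAs also depend on how well each was captured, which was not measured. The median of the Initial miRNA Dataset was 876 CPM, and 121 of its 143 miRNAs had a higher mean than miR-424-5p.

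miR-424-5p was at 189, 327, 261 and 271 CPM in Control replicates 1 to 4, at 186, 313, 251 and 253 CPM in DMSO and at 180, 273, 177 and 229 CPM in PlaB. Replicate 2 was highest in each condition, and the 3 conditions overlapped. Within an experiment, PlaB was below DMSO in 4 of 4 pairs and below Control in 4 of 4, and DMSO was below Control in 4 of 4. These comparisons share libraries, and DMSO lay close to Control in each pair. How many of all miRNAs had such pairs was not counted, so they are no sign of a fall particular to miR-424-5p. miR-424-3p was at 133, 147, 193 and 237 CPM in Control, 182, 163, 173 and 175 CPM in DMSO and 149, 140, 196 and 212 CPM in PlaB. Its DMSO libraries were closer together than those of either other condition and lay inside their range. miR-503-5p was at 156, 229, 178 and 177 CPM in Control, 138, 188, 137 and 178 CPM in DMSO and 178, 193, 152 and 167 CPM in PlaB, again with overlap.

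Of the 5 members tested, 0 passed the threshold for reads in each of the 3 comparisons, at an adjusted p under 0.05 in edgeR's quasi-likelihood test, and 0 had an unadjusted p under 0.05 without a block. DESeq2 also called 0 members in each. The share called in either direction among all 143 miRNAs was 4.2% for DMSO against Control, 0.699% for PlaB against DMSO and 3.5% for PlaB against Control. The members' median log2 fold change in reads was -0.02 for DMSO against Control, beside 0.05 over all 143, and -0.05 for PlaB against DMSO, beside -0.04. With the replicate number as a block, the calls over all 143 miRNAs rose to 15 higher and 9 lower for DMSO against Control and to 8 lower for PlaB against Control, still with 0 members. For PlaB against DMSO the block gave 1 lower call, also not a member. Unadjusted p was under 0.05 for 18 of 143 miRNAs in PlaB against DMSO and for 21 in PlaB against Control, each with 1 of the 5 members. The block narrowed the interval of miR-424-5p, whose log2 fold change was then -0.23 for PlaB against DMSO (SE 0.10, 95% confidence interval -0.44 to -0.01, edgeR unadjusted p = 0.038, adjusted p = 0.32) and -0.27 for PlaB against Control (SE 0.10, -0.49 to -0.06, edgeR unadjusted p = 0.0168, adjusted p = 0.15).

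Without the block, the log2 fold change in reads for PlaB against DMSO was -0.24 (95% confidence interval -0.71 to 0.24) for miR-424-5p, 0.00054 (-0.40 to 0.40) for miR-424-3p and 0.09 (-0.27 to 0.46) for miR-503-5p. The intervals of miR-450a-5p (-0.54 to 0.45) and miR-450b-5p (-0.63 to 0.40) likewise include 0. miR-542-3p, in the wider set, had -0.11 (-0.77 to 0.55) in edgeR's test, with an adjusted p of 0.993. CPM are shares of a library and do not give the amount of a miRNA per cell.

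The label reached the members very unevenly. In DMSO, the 3 miRNAs of the MIR424 and MIR503 hairpins carried conversions well above Control, whereas those of the MIR542, MIR450A and MIR450B hairpins, at the other end of the locus, had few or none. The mean T>C conversion rate in DMSO was 0.846% ± 0.479 (SD, n = 4) for miR-424-3p, 0.367% ± 0.169 for miR-503-5p, 0.187% ± 0.174 for miR-424-5p, 0.0308% ± 0.0357 for miR-450a-5p, 0.0205% ± 0.0268 for miR-450b-5p and 0.0113% ± 0.0225 for miR-542-3p. The libraries of each neighbour in this order overlapped. Among the 143 miRNAs, 12 had a higher mean DMSO rate than miR-424-3p, 36 than miR-503-5p, 71 than miR-424-5p, 125 than miR-450a-5p and 130 than miR-450b-5p. The authors state that their method cannot directly compare how fast different miRNAs are made. These rates therefore do not rank the synthesis of the members, and the cause of the unevenness was not tested.

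**Figure D1:**
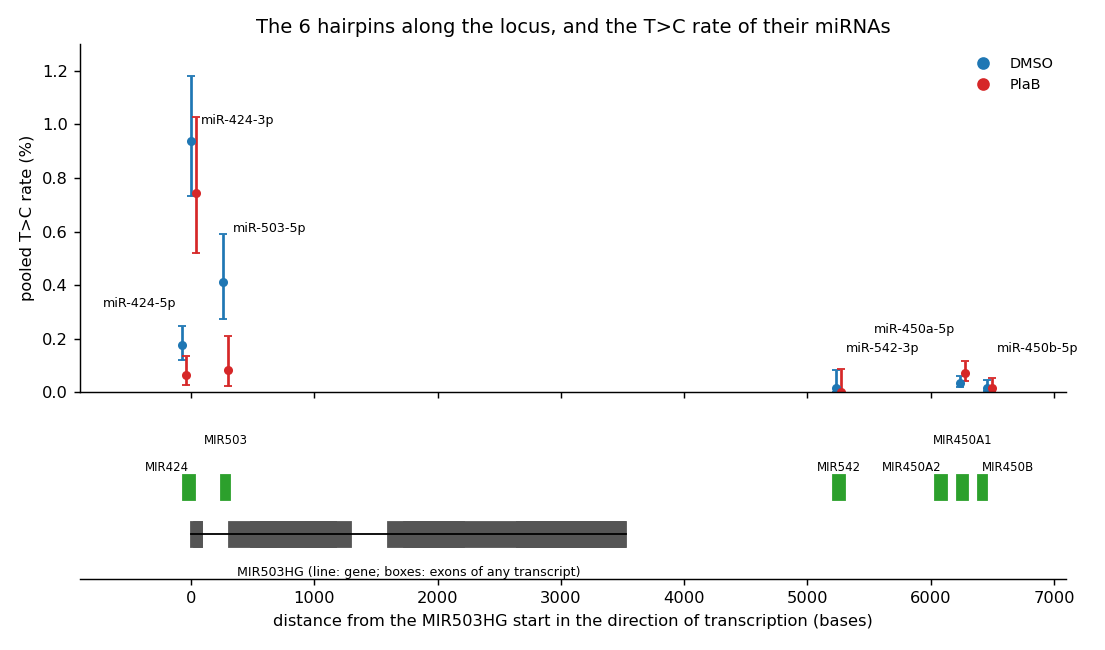
Pooled T>C conversion rate (%, conversions over covered T of 4 libraries, bars are exact 95% binomial intervals for counting error) of the cluster miRNAs in DMSO and PlaB, above the hairpins (green) and MIR503HG (grey), against distance in bases from the MIR503HG start. Rates above 0.1% in DMSO are those of the MIR424 and MIR503 hairpins, and miR-450a-5p, drawn at MIR450A1, also arises from MIR450A2; points are set slightly apart for legibility.

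Pooling the 4 DMSO libraries gave 72 conversions in 7680 covered T for miR-424-3p, a rate of 0.938% (exact 95% binomial interval 0.734 to 1.18). The interval was 0.276 to 0.590% for miR-503-5p and 0.122 to 0.246% for miR-424-5p, so the 3 intervals did not overlap. They leave out the spread between libraries, and the order did not hold in each library. In DMSO replicate 4 miR-424-3p, at 0.149%, lay below miR-503-5p, at 0.288%. In DMSO replicate 3 miR-503-5p, at 0.183%, lay below miR-424-5p, at 0.394%. For miR-450a-5p the interval was 0.0197 to 0.0604%, below all 3. Its 38868 covered T positions are as deposited, apparently with each read counted at both loci, so they cannot be ranked against those of other members. miR-450b-5p had 4 conversions in 21739 covered T. miR-542-3p had 1 conversion in 6694 covered T, a rate of 0.0149% with an interval of 0.000378 to 0.0832%.

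Control libraries, which had no 4SU, give the background. Control held 0 conversions of miR-503-5p, which sets an upper limit of 0.0485% (3 conversions over the 6190 covered T of the group). miR-424-3p and miR-424-5p had 1 Control conversion each, in replicate 4 and in replicate 2. miR-450b-5p had 2, 3, 2 and 0 conversions in Control against 0, 2, 2 and 0 in DMSO, so its background was not below its labelled value.

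miR-424-3p had 35, 21, 14 and 2 conversions in DMSO replicates 1 to 4, rates of 1.24, 0.991, 1.00 and 0.149%. All 4 lay above the highest Control library, 0.0446%, and replicate 4 stood well below the others. The log2 fold change of DMSO against Control was 5.15 (SE 1.07, edgeR adjusted p = 3.08e-05).

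miR-503-5p had 9, 14, 2 and 4 conversions, rates of 0.423, 0.573, 0.183 and 0.288%, again all above Control. With that limit as the Control value, the mean DMSO rate was 7.57-fold higher. This ratio leaves out the spread of the DMSO libraries and is no lower bound. In edgeR's test the adjusted p was 0.00115. Non-overlap of this kind, with every DMSO library above every Control library, held for 2 of the 5 members, miR-424-3p and miR-503-5p, and for 70.6% of all 143.

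miR-424-5p had 13, 7, 14 and 0 conversions, rates of 0.257, 0.0975, 0.394 and 0%. DMSO replicate 4 thus had none, while the other 3 lay above the highest Control value of 0.0182%. The log2 fold change was 4.32 (SE 1.36, edgeR adjusted p = 0.00385).

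miR-450a-5p had 0, 10, 0 and 4 conversions in DMSO and 0 in every Control library, so DMSO replicates 1 and 3 had none, like Control. As deposited it passed the threshold (edgeR adjusted p = 0.0245). It did not with each read counted once (adjusted p = 0.0779), in DESeq2 (0.0824), without DMSO replicate 2 (0.0881) or without DMSO replicates 1 and 2 together (0.0583). miR-450b-5p did not pass, with a log2 fold change of -1.24 (95% confidence interval -3.87 to 1.38) and an edgeR adjusted p of 0.373.

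In all, 4 of the 5 members tested had a higher T>C rate in DMSO than in Control as deposited, and 3 with miR-450a-5p counted once, beside 82.5% of all 143 miRNAs. The members' median log2 fold change was 4.39, against 3.16 over all 143. A fitted change against a Control group with 0 or 1 conversion depends on the small count that the fit adds, and is no bound.

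**Figure D2:**
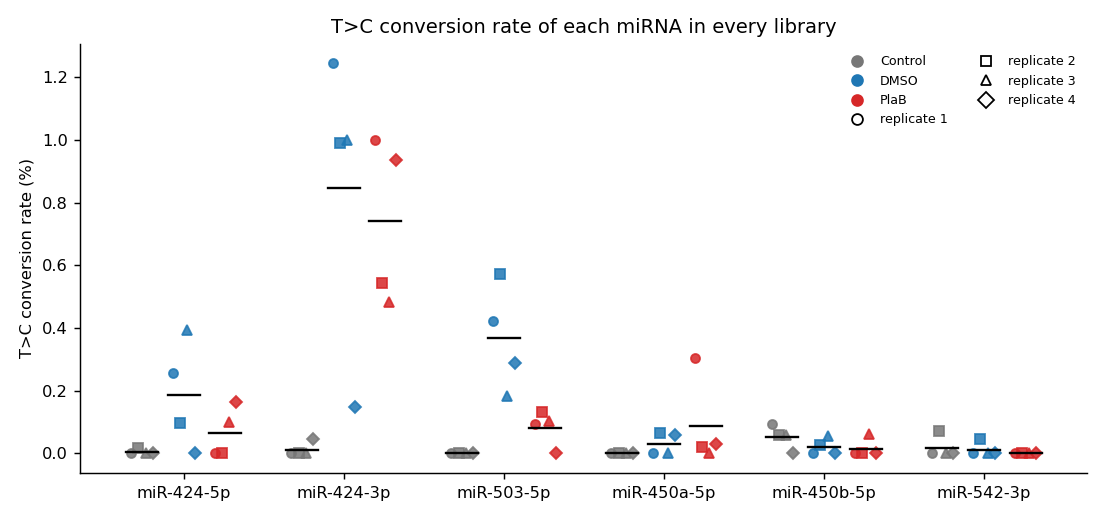
T>C conversion rate (%) of each cluster miRNA in the 12 libraries, with a symbol for each replicate number and a black line at the mean of the 4 libraries of a condition. miR-424-3p stays at 0.484 to 0.999% in PlaB, miR-503-5p lies between 0 and 0.131% there, and the miR-450a-5p mean in PlaB rests on replicate 1 at 0.303%.

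The comparison of PlaB with DMSO asks whether the labelling of each member depended on splicing factor activity. Among all 143 miRNAs, 69 had a lower rate in PlaB, which is 48.3%, and 0 had a higher one. Of the 5 members, 0 passed in either direction and 0 had an unadjusted p under 0.05 in edgeR's test, and DESeq2 also called 0 members. The members' median log2 fold change was -0.25 beside -1.23 over all 143, and single members ranged from -2.09 to 1.34, with standard errors whose median was 1.10 against 0.64 over all 143. The confidence intervals of 4 of the 5 members included the median of all 143, the exception being miR-450a-5p as deposited.

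miR-424-3p had 9, 6, 6 and 15 conversions in PlaB, rates of 0.999, 0.544, 0.484 and 0.936%. These lay inside the range of the DMSO libraries, and all 4 lay above every Control library. From DMSO to PlaB the log2 fold change was -0.22 (SE 0.69, 95% confidence interval -1.61 to 1.17, edgeR adjusted p = 0.83), and 120 of the 143 miRNAs had a lower fold change. The interval includes the median of all 143, so a decrease of that size was not excluded by it.

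miR-503-5p had 1, 2, 1 and 0 conversions in PlaB, rates of 0.0929, 0.131, 0.104 and 0%. No PlaB library reached the lowest DMSO library, as for 46.2% of all 143 miRNAs, and miR-503-5p was the 1 member with this separation. The log2 fold change was -2.09 (SE 1.11, 95% confidence interval -4.33 to 0.14), which did not pass in edgeR's test (adjusted p = 0.117).

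miR-424-5p had 0, 0, 2 and 5 conversions in PlaB, rates of 0, 0, 0.101 and 0.163%, overlapping DMSO. Its log2 fold change was -1.44 (95% confidence interval -3.60 to 0.72, edgeR adjusted p = 0.286).

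miR-450a-5p had 14, 2, 0 and 2 conversions in PlaB, and 14 of these 18 came from replicate 1. Its fold change of 1.34 on the log2 scale was the highest of all 143 but did not pass in edgeR's test (adjusted p = 0.334), and without PlaB replicate 1 it was -0.71. miR-450b-5p had 2 conversions in PlaB, both in replicate 3, and miR-542-3p had 0, which allows a rate of up to 0.0699%.

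**Figure D3:**
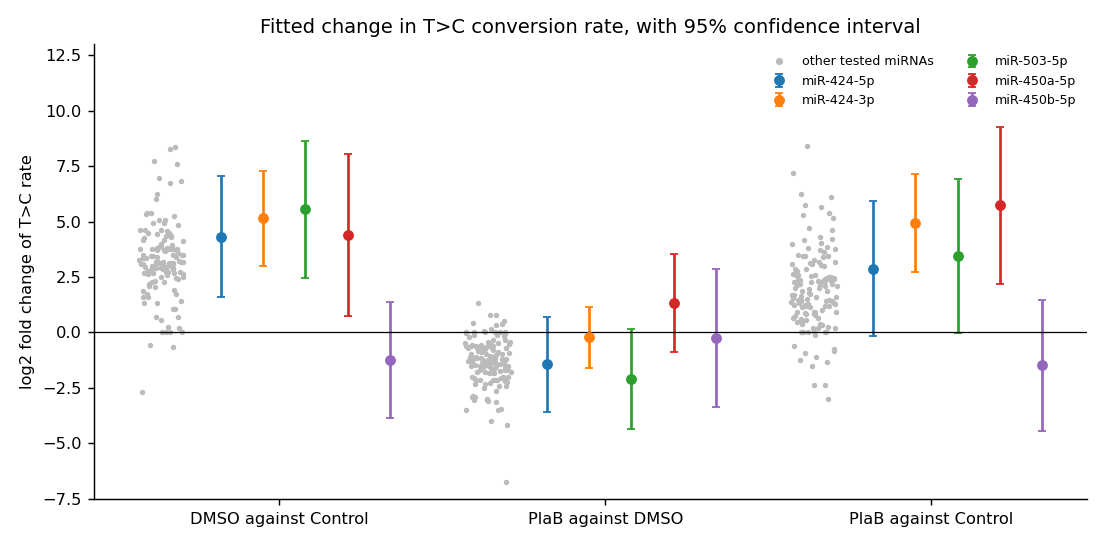
Log2 fold change of the T>C conversion rate in edgeR's fits, with 95% confidence intervals, for the 5 cluster miRNAs tested (colours) beside the other miRNAs of the Initial miRNA Dataset (grey points), in 3 comparisons. For PlaB against DMSO all 5 intervals include 0, and miR-503-5p lies lowest at -2.09 and miR-450a-5p highest at 1.34.

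The background-subtracted ratio, mean PlaB minus Control over mean DMSO minus Control, was 0.874 for miR-424-3p, 0.337 for miR-424-5p and 0.224 for miR-503-5p. Leaving out each library in turn gave 0.684 to 1.04 for miR-424-3p, 0.160 to 0.541 for miR-424-5p and 0.179 to 0.299 for miR-503-5p. The range of miR-424-3p lay above those of the other 2 miRNAs, but such ranges are not error intervals. Permutation tests of its rate ratio to each of them, given below, did not pass. With 4 libraries in each group and 7 tests they could hardly pass after adjustment, so they do not decide whether the ratios differ. For miR-450a-5p the ratio was 2.88 but ranged from 0.552 to 4.60, and for miR-450b-5p and miR-542-3p it has no meaning because DMSO was not above Control.

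Against Control, PlaB gave a higher rate for 2 of the 5 members, beside 53.8% of all 143. miR-424-3p passed with a log2 fold change of 4.93 (SE 1.09, edgeR adjusted p = 0.000133). miR-450a-5p passed as deposited (edgeR adjusted p = 0.00521) and counted once (adjusted p = 0.0279), but not without PlaB replicate 1 (adjusted p = 0.117). miR-503-5p and miR-424-5p did not pass (edgeR adjusted p = 0.0821 and 0.10). Every PlaB library lay above every Control library for miR-424-3p alone of the 5, and for 38.5% of all 143. The DMSO and PlaB comparisons share their Control libraries.

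MIR424 was the only hairpin here with both arms among the members, so its arms could be set side by side within each library. miR-424-3p made up 41.3, 31.1, 42.5 and 46.7% of miR-424 reads in Control, 49.4, 34.3, 40.9 and 40.9% in DMSO and 45.3, 34.0, 52.6 and 48.1% in PlaB. The means were 40.4% ± 6.62 (SD, n = 4), 41.4% ± 6.22 and 45.0% ± 7.93, and the conditions overlapped. PlaB was 3.62 percentage points above DMSO (two-sided exact permutation test of 4 against 4 libraries, p = 0.486), and DMSO was 1.01 points above Control (exact permutation p = 0.83). The smallest p this design allows is 0.0286, and neither test paired the libraries by experiment. Within experiments, PlaB was below DMSO in replicates 1 and 2 and above it in replicates 3 and 4. Both differences moved with single libraries, the former from 1.09 points without PlaB replicate 3 to 7.29 without PlaB replicate 2, and the latter from -2.09 without Control replicate 2 to 3.38 without DMSO replicate 2.

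The other hairpins favoured one arm. Of miR-542 reads, 95.8 to 99.6% came from the 3p arm, while the 3p arm gave at most 0.725% of miR-503 and 0.851% of miR-450b reads. miR-450a-1-3p and miR-450a-2-3p, which differ in sequence and so separate the pair of MIR450A hairpins, held 180 and 149 reads over all 12 libraries and 0 conversions each. miR-503-3p held 6 reads, miR-450b-3p 4 and miR-542-5p 44, too few to compare.

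The T>C rate was higher on miR-424-3p than on miR-424-5p in 4 of 4 DMSO libraries, by 0.149 to 0.987 percentage points (exact sign-flip permutation p = 0.125, the smallest that 4 pairs allow). It was also higher in 4 of 4 PlaB libraries, by 0.383 to 0.999 points (exact sign-flip permutation p = 0.125). The arms come from the same hairpin, and the rate is already taken per covered T position. The cause of the difference between the arms was not tested.

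The log2 ratio of the 3p to the 5p rate, with 0.5 conversions added, was 2.24, 3.28, 1.34 and 3.69 in DMSO and 5.34, 5.48, 2.05 and 2.43 in PlaB. The groups overlapped and the difference of 1.18 did not pass (exact permutation p = 0.314, adjusted p = 0.55 over 7 such tests). As the smallest p possible is 0.0286, a lone test at that p would not pass after adjustment over 7 tests. PlaB replicates 1 and 2 and DMSO replicate 4 had 0 conversions of miR-424-5p, so the difference depended on the addition, being 1.83 with 0.1 and 0.88 with 1 conversion added, and it ranged from 0.63 without PlaB replicate 2 to 1.78 without PlaB replicate 3. The log2 ratio of miR-424-3p to miR-503-5p, from neighbouring hairpins, was 1.5, 0.77, 2.18 and -0.80 in DMSO and 2.92, 1.84, 1.75 and 4.62 in PlaB. It was 1.87 higher in PlaB, with DMSO replicate 3 above PlaB replicates 2 and 3, and did not pass either (exact permutation p = 0.114, adjusted p = 0.467). The 4.62 of PlaB replicate 4 depended on the addition, as that library had 0 conversions of miR-503-5p. The -0.80 of DMSO replicate 4 rested on 2 conversions of miR-424-3p. Leaving out each library in turn gave a difference of 1.26 to 2.29.

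Each rate was also taken relative to the mean of the Initial miRNA Dataset without the members in the same library. On that log2 scale, miR-424-3p was 0.98 above the mean in DMSO and 2.07 above it in PlaB, a difference of 1.09 (exact permutation p = 0.2) that was 0.47 without DMSO replicate 4, which had 2 conversions. miR-503-5p was 0.07 above it in DMSO and at -0.71 in PlaB (exact permutation p = 0.2), a difference of -0.78 that was -0.32 without PlaB replicate 4, -1.53 with 0.1 and -0.39 with 1 conversion added. miR-424-5p was at -1.66 and -1.75 (exact permutation p = 0.914). For all 3 the DMSO and PlaB libraries overlapped.

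The miRNAs that share the seed of miR-424-5p come from other loci, and 3 of the 5 were abundant enough for the test. miR-16-5p was at 59041 CPM as deposited, miR-15b-5p at 3430 CPM and miR-15a-5p at 1395 CPM on average, against 243 CPM for miR-424-5p. miR-16-5p also has a pair of loci, and its multi-mapping count was even in 12 of 12 libraries and its conversions in 8 of 12. For PlaB against DMSO, the T>C rate of miR-16-5p fell by 1.39 on the log2 scale (edgeR adjusted p = 1.89e-07) and that of miR-15a-5p fell by 1.53 (adjusted p = 0.0218), while miR-15b-5p had -0.10 (adjusted p = 0.83). Their median was -1.39, beside -1.23 over all 143, and the -1.44 of miR-424-5p lay within the range of the 3. miR-16-5p had 10068 conversions in DMSO against 34 for miR-424-5p, and its standard error was 0.20 against 1.08. miR-195-5p had 2, 2, 12 and 0 conversions in DMSO and 0 in PlaB and Control, and miR-497-5p had 0 throughout, both below the level tested.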

How the data were processed

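Of the SLAMseq experiment in Huh7 cells, the 12 deposited tables were used, with conditions and replicate numbers from the labels. The authors trimmed reads with Trim Galore, aligned to GRCh38 and used SLAM-DUNK to count on the mature miRNA coordinates of miRBase, without a mapping quality filter and with SNP masking. The deposited tables give counts of reads, covered T positions and T>C conversions, the authors' CPM, and the conversion rate as a fraction (in percent here).

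The members and lists were chosen with earlier results of these data known. Named miRNAs are the members, the other arms of their hairpins, 5 miRNAs sharing the seed of miR-424-5p and the 3 most similar in level to each member. Reads (TMM factors) and conversions (log covered T as offset) were tested with edgeR 4.0.16 in R 4.3.3 in a single fit of 3 conditions without a block, with Benjamini-Hochberg adjustment over 143 miRNAs and a threshold of 0.05. MirGeneDB membership was taken from the study's supplementary list. Arm shares and rate ratios were compared by exact permutation (70 labelings), with 0.5 conversions added to each count, in Python 3.11.15 with numpy 2.4.6. Scripts were tested on simulated data. Alternatives were RLE factors, DESeq2 1.42.0, other sets of miRNAs, reads with a conversion, other additions, a replicate block and libraries left out, and, chosen after seeing the data, miR-450a-5p counted once.

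Libraries sharing a replicate number come from one experiment. Their deviations from the condition mean in log2 CPM had across-miRNA correlations whose medians were 0.559 to 0.575 and whose lowest was 0.274, so the numbers pair the libraries. For rates the medians were -0.018 to 0.129.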

Additional observations from a re-analysis of the deposited data

Results flagged for a closer look

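In groups of 4 libraries, 36 sets of member values were checked for a library far from the other 3. The measure was its gap relative to the range, above Dixon's 95% critical value. Of these sets 6 were flagged, all of them T>C rates. The usual chance rate of about 1 in 20 does not hold for counts this sparse. A lone library with a conversion is always flagged when the other 3 have none. In 5 of the 6 flagged sets the other 3 libraries had no conversion. These were miR-424-5p in Control replicate 2 (0.0182%), miR-424-3p in Control replicate 4 (0.0446%), miR-450b-5p in PlaB replicate 3 (0.0612%), miR-542-3p in Control replicate 2 (0.0728%) and miR-542-3p in DMSO replicate 2 (0.0451%). Each rested on 1 conversion, or on 2 for miR-450b-5p.

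The sixth was miR-450a-5p in PlaB replicate 1, at 0.303% with the next library at 0.029%. Its 14 deposited conversions lay on 14 deposited reads, and are 7 if each read is counted once.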

How the results depend on the processing

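Depth limits these results: members had 0 to 35 conversions per library. Reads calls stayed at 0 members under every alternative run, and so did conversion calls for PlaB against DMSO. For DMSO against Control the calls were 3 or 4 of the 5 members under every alternative, and 4 with the replicate block, which changed no call of a member. For PlaB against Control they were 1 or 2, and 1 was without PlaB replicate 1. No member had enough conversions for the filterByExpr set of conversions, so it gave no value.

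Of 606 member values under alternatives, 547 kept direction and call, 5 lost the call, all of them of miR-450a-5p, and 54 changed sign, none of them called. For log2 reads, PlaB against Control, miR-424-3p turned to 0.00504 with RLE factors, 0.0051 in DESeq2 and 0.00147 without DMSO 1 and 2, and miR-450a-5p to 0.0202, 0.0197 and 0.0153, and to 0.00656 in the 8 libraries compared. For PlaB against DMSO, miR-450a-5p turned to 0.00377, 0.00300, 0.00792 and 0.0168 under the same settings, and miR-424-3p to -1.08e-05 with filterByExpr, -0.000143 with no filter, -0.033 with the replicate block and -0.0114 without DMSO 1 and 2. For DMSO against Control, miR-424-3p turned to 0.0203 with the replicate block and 0.0129 without DMSO 1 and 2. For conversions, PlaB against DMSO, miR-424-3p turned to 0.36 without DMSO 1 and 2.

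Leaving out 1 library gave these ranges for values that changed sign. Reads, DMSO against Control: miR-424-3p -0.15 to 0.14, miR-424-5p -0.20 to 0.0665, miR-450a-5p -0.16 to 0.13. Reads, PlaB against Control: miR-424-3p -0.12 to 0.17, miR-450a-5p -0.19 to 0.15, miR-450b-5p -0.10 to 0.19, miR-503-5p -0.15 to 0.0454. Reads, PlaB against DMSO: miR-424-3p -0.0735 to 0.0906, miR-450a-5p -0.22 to 0.17, miR-450b-5p -0.25 to 0.031. Conversions, PlaB against DMSO: miR-424-3p -0.54 to 0.0364, miR-450a-5p -0.71 to 2.13, miR-450b-5p -2.89 to 0.49. The 3p share for DMSO against Control ranged from -2.09 to 3.38 percentage points. The relative rate of miR-424-5p ranged from -1.07 to 0.58, and was 0.20 with 1 conversion added and 0.44 without DMSO 1 and 2. The cause of these changes was not tested.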

Other observations

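Across the 12 libraries of 4 experiments, the log2 CPM of miR-424-5p correlated with that of miR-450b-5p (r = 0.72), miR-450a-5p (r = 0.69) and miR-503-5p (r = 0.68), beside a median of 0.04 over all pairs of the Initial miRNA Dataset. With miR-542-3p r was lower, at 0.38, and with miR-424-3p, from its own hairpin, it was -0.0012. miR-424-3p had r of -0.55 with miR-450a-5p and -0.27 with miR-503-5p. These values describe n = 12 libraries, in which all miRNAs share depth and experiment, and were not tested.

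The miRNA most like each member in level over the 12 libraries, among those above 50 CPM, was miR-21-5p for miR-424-5p (r = 0.83) and for miR-503-5p (r = 0.72), miR-16-2-3p for miR-424-3p (r = 0.79), miR-34a-5p for miR-450a-5p (r = 0.84), miR-424-5p for miR-450b-5p (r = 0.72) and miR-7-5p for miR-542-3p (r = 0.81). One of the 3 most similar to miR-424-5p was a cluster member, miR-450b-5p, and for miR-424-3p none was, with miR-191-5p (r = 0.76) and miR-501-3p (r = 0.75) next.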
